A study of Arabidopsis thaliana with 8 samples.

Results

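The genes described here were nearly silent in root tips after 48 h at 30 °C and carried reads in every control library at 22 °C. They are 100 of the 23632 genes with normalised values. Among the 467 genes with a mean normalised value below 2 at high temperature and a value above 0 in each of the 4 control libraries, the 100 with the highest control mean were kept. The members were therefore chosen on the measured values of both temperatures, and their difference between the temperatures is a description with no test. The normalised value is the read count of a gene divided by a size factor of the library, so that 1 read was worth 0.877 to 0.968 at high temperature and 1.03 to 1.11 in the control.

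The RNA came from the last 1 mm of the root of Arabidopsis thaliana (accession Col-0), cut whole, with its cell types not separated. Seedlings raised at 22 °C were 5 days old when their plates were moved to 30 °C (high temperature) or stayed at 22 °C (control), and 7 days old when they were cut 48 h later. The labels give 4 replicates per temperature and the methods give 3, each a pool of 50 seedlings taken as 10 from each of 5 plates, and all 8 libraries were used. All seedlings were wild type on the same sucrose-containing medium under long days. Genes outside the members were called lower or higher at high temperature by limma on log2 values, where the adjusted p was under 0.05 and the log2 fold change was 0.58 or more in size. The p-values below measure the difference against the variation between pools, and temperature and any other factor shared by a group cannot be told apart. The libraries held 38216649 to 41833843 reads in genes at high temperature and 38396646 to 40750937 in the control. Of all tested genes 17.5% were lower and 20% higher. In the marker lists without the members, 21 of 35 tested root hair growth genes were lower, 6 of 8 for photosynthesis, 3 of 8 for the root cap, 2 of 10 for the meristem, 2 of 15 for the xylem, 1 of 11 for the endodermis and 0 of 9 for the phloem. Higher were 4 of the phloem genes, 3 of the xylem, 2 each of root hair growth and the meristem, and 1 each of photosynthesis, the root cap and the endodermis.

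An epidermal root cell becomes a hair cell or a non-hair cell according to its position, and a hair cell then forms an outgrowth that extends at its tip at the end of the elongation zone. Basic helix-loop-helix (bHLH) factors of the RHD6 and RSL group switch on the genes for this growth, which encode extensins, other proline-rich wall proteins, peroxidases and regulators of small GTPases. Many of these promoters carry the root hair element (RHE), a short motif which such factors bind. A segment of this length can hold the meristem, cells in elongation and, at its upper end, young differentiating cells. At high temperature the paper reports a longer distance from the tip to the first hair bulge. It also reports a slightly smaller meristem and more cells in the elongation zone, and concludes that the switch to differentiation was delayed. Whether the cut segments held the same zones at both temperatures was not tested.

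The RHE was searched on both strands in the 300 bases before the annotated start of each gene in the RefSeq genome TAIR10.1. It was found before 4 of the 97 protein-coding members (4.12%), against 189 of 20499 promoters of all tested coding genes (0.92%) and 56 of 3669 promoters of genes called lower (1.53%). Of these 4 members 2 are in the list of root hair growth genes, and among the other 93 members it was found before 2 (2.15%). The windows of these members are shown, because they hold the letters of the motif searched. They are chr1:26030400-26030456 on the minus strand for MES15, a methyl esterase also named RHS9, and chr1:19458231-19458287 on the minus strand for ROPGEF11, an exchange factor of ROP GTPases. The windows of PRP3, a proline-rich protein of the hair wall, and of FUT10, a fucosyltransferase, lie at chr3:23182535-23182591 on the plus strand and at chr2:6689947-6690002 on the minus strand. Each is written 5′ to 3′ on the strand of its gene, with the match in capitals and 20 bases on either side.
MES15: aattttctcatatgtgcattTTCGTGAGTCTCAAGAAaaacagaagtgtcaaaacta
ROPGEF11: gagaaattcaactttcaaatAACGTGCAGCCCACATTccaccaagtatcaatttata
PRP3: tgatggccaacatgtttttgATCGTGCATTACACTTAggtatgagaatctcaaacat
FUT10: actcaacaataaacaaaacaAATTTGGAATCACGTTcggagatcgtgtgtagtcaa
The match ended 108 bases before the start of MES15, 182 before ROPGEF11, 151 before PRP3 and 148 before FUT10. It reads forward in FUT10 and as the reverse complement in the other genes. A match is a description of these letters and not evidence of a site. The G-box CACGTG stood before 9 members (9.28%) and 7.83% of all promoters. The heat shock motif GAANNTTC stood before 10 members (10.3%) and 11.2% of all, and the evening element AAAATATCT before 0 members and 2.86% of all.

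The members were low in the control as well. Their control means ranged from 12.5 to 294.2 with a median of 25.7, and 11 of them reached 100, 22 reached 50 and 62 reached 20. Per length, the control means ranged from 0.14 to 7.51 FPKM (fragments scaled to gene length and library size) with a median of 0.48 FPKM. The high temperature libraries together held 334 reads of the members and the control libraries 16936. The 10 members with the highest control means carried 39.3% of the control reads. By the level per length, AT4G22640 stood at 7.51 FPKM, AT4G22217 at 7.48 FPKM and AT4G22214 at 4.32 FPKM in the control, and AT3G09330 and HRGP1 followed at 2.83 and 2.80 FPKM.

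Complete silence was not the rule among the members. Of the 100, 25 lacked reads in all 4 high temperature libraries, 30 had 1 to 3 reads over the 4 libraries and 45 had more, up to 9. With 3 reads over the group taken as the floor, the 25 were at least 18.6-fold to at least 308-fold lower at high temperature, with a median bound of 50.6. In 99 of the 100 members every high temperature library lay below every control library, a pattern that 32.7% of the 21739 tested genes show. The exception is PSAH2, with 0, 7.02, 0 and 0.97 at high temperature against 10.3, 24.3, 6.39 and 9.42 in the control. All 100 members were called lower by the test across genes, where 17.5% of tested genes were called lower and 20% higher, and nothing follows from it because the same values chose them. In a whole segment, fewer cells of a type and less RNA per cell cannot be told apart.

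**Figure D1:**
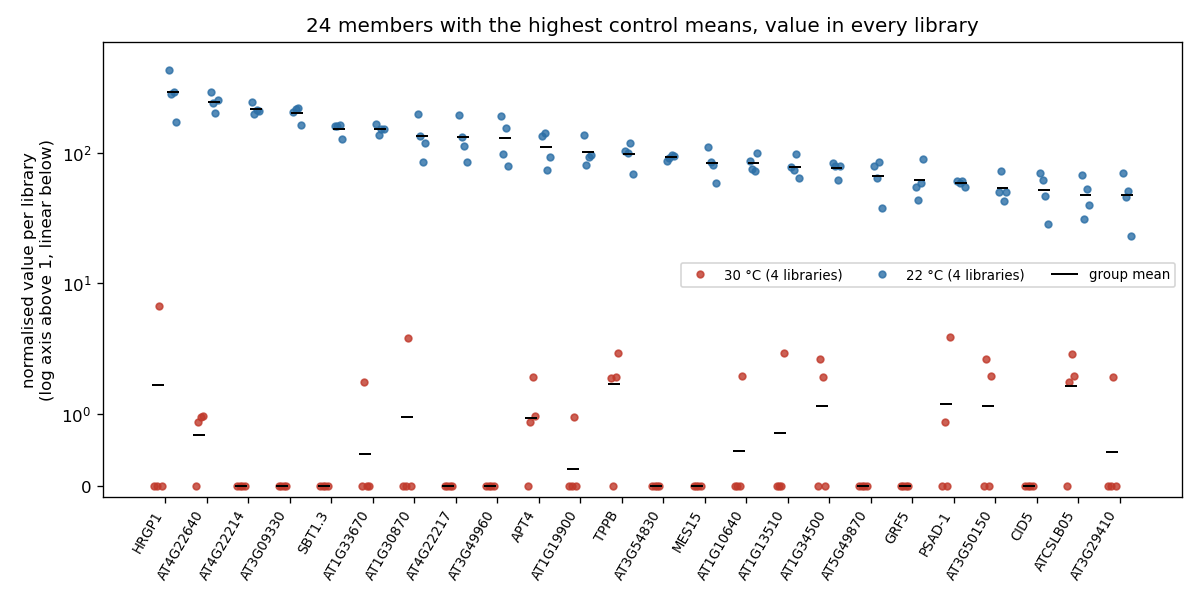
Normalised values (y axis, log scale above 1 and linear below) of the 24 members with the highest control means (x axis), with 4 libraries at 30 °C in red left of 4 libraries at 22 °C in blue and a bar at each group mean. HRGP1 stands at the left, with reads at 30 °C in replicate 3 alone (6.67) and a control mean of 294.2.

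Wall proteins stood at ranks from 1 to 97 of the control means. HRGP1 (AT3G54590), a hydroxyproline-rich glycoprotein of the extensin type, had values of 0, 0, 6.67 and 0 at high temperature, against 431, 283, 291 and 172 in the control. The reads at high temperature were 7, all in replicate 3. EXT13 (AT5G35190), an extensin, had no read at high temperature and values of 42.4, 49.8, 23.4 and 26.2 in the control, and EXT12 (AT4G13390) had 0, 0, 3.81 and 0 against 16.5, 15.5, 11.7 and 7.33. PRP3 (AT3G62680) had 4.69, 0, 0.95 and 0 at high temperature and 71.3, 35.4, 25.6 and 29.3 in the control. The reads of EXT12 at high temperature all stood in replicate 3, and those of PRP3 in replicates 1 and 3. AGP3 (AT4G40090), an arabinogalactan protein of the cell surface, had 0, 0, 1.91 and 0 at high temperature. Its control values of 33.1, 38.7, 6.39 and 8.37 formed 2 separate pairs of pools.

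A pair of class III peroxidases, enzymes that cross-link or loosen wall polymers, were members. AT3G49960 had no read at high temperature and 191, 97.3, 154 and 79.6 in the control. AT1G30870 had 0, 0, 3.81 and 0 at high temperature against 197, 135, 84.2 and 119 in the control, its 4 reads again all in replicate 3. Of the other 66 tested peroxidases, 16 were lower (24.2%) and 19 were higher (28.8%). Of 144 further extensins and proline-rich proteins 32 were lower and 18 higher (22.2% and 12.5%), of 126 further pectin enzymes 45 were lower and 22 higher (35.7% and 17.5%), and of 44 further arabinogalactan proteins 13 were lower and 8 higher. No expansin was a member, although 14 of 23 tested expansins were lower.

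The pectin enzymes among the members were AT1G10640, a pectin lyase-like protein, and AT5G04960, of the pectin methylesterase and inhibitor superfamily. AT1G10640 had 0, 0, 0 and 1.94 at high temperature, against 86.8, 75.2, 72.4 and 99.4 in the control. AT5G04960 had no read at high temperature, against 35.1, 36.5, 13.8 and 6.28 in the control, where the pools split as in AGP3. SBT1.3 (AT5G51750), a subtilase, which is a secreted protease, also had no read at high temperature, with 161, 160, 162 and 127 in the control. Replicate 4 was the low one of these pools. Enzymes of carbohydrate metabolism were represented by TPPB (AT1G78090), which removes the phosphate of trehalose 6-phosphate. TPPB had 1.88, 0, 1.91 and 2.90 at high temperature and 103, 99.5, 118 and 69.1 in the control. AT1G19900, a glyoxal oxidase-related protein, had a single read at high temperature and 135, 80.7, 92.7 and 96.3 in the control.

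Small secreted proteins stood near the top. AT4G22214 and AT4G22217, a pair of defensin-like proteins, lacked reads in all 4 high temperature libraries. In the control AT4G22214 had 243, 198, 214 and 209, which puts it at least 308-fold lower at high temperature, and AT4G22217 had 194, 132, 113 and 84.8. They lie 3 gene positions apart on chromosome 4 (11754912 to 11756270 and 11758578 to 11759098). Of the 29 tested genes of small cysteine-rich peptides these 2 were members (6.9%, against 0.46% of all tested genes). Of the other 27, 9 were lower and 7 higher. AT4G22640, a lipid-transfer protein, had 0, 0.88, 0.95 and 0.97 at high temperature, which is 1 read in each of 3 libraries, and 294, 239, 200.3 and 252 in the control. A further lipid-transfer protein, AT5G01870, had 0, 0, 1.91 and 0 at high temperature against 4.13, 11.1, 23.4 and 18.8 in the control. Its lowest control value was in replicate 1, the library that was highest for the largest number of members.

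By the keywords used to form the families, transporters and channels gave 8 members of 808 tested genes (0.99%). Of all tested genes 0.46% were members. The member ABCA6, an ABC protein named after its values were seen, was not taken in. Of the other 800, 182 were lower (22.8%) and 176 higher (22%). AT3G09330 and AT3G54830, transmembrane amino acid transporters, had no read at high temperature. AT3G09330 had 206, 216, 221 and 162 in the control and AT3G54830 had 85.8, 91.8, 95.9 and 94.2. The coefficient of variation (CV) of AT3G54830 among the controls, 4.80%, was the lowest of all members. A pair of MATE transporters, which export organic molecules, kept some reads. AT2G38510 had 1.88, 0, 1.91 and 3.87 at high temperature against 27.9, 21.0, 18.1 and 17.8 in the control. AT1G33100 had 0.94, 7.02, 0 and 0 at high temperature against 26.9, 17.7, 14.9 and 22.0 in the control, so that its mean of 1.99 was just under the limit of 2. HKT1 (AT4G10310), which retrieves sodium from the xylem, had 0, 0.88, 0.95 and 0 at high temperature and 8.27, 15.5, 17.0 and 13.6 in the control. Of the 8 other tested genes in a list of nutrient and ion transport, 0 were lower and 2 higher. Over all tested genes 17.5% were lower and 20% higher.

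Transcription factors gave 7 members of 1226 tested genes (0.57%, against 0.46% of all tested genes). Of these 7, AGL14, a MADS-box factor, stood at the rank of 100. LAF1 (AT4G25560), a MYB factor known from phytochrome A signalling, had no read at high temperature and 38.2, 18.8, 46.9 and 20.9 in the control. MYB28 (AT5G61420), the main activator of aliphatic glucosinolate synthesis, had 0, 0, 0.95 and 0 at high temperature. Its control values were 40.3, 23.2, 39.4 and 5.23, with replicate 4 far under the others. AT3G18960, a B3-domain factor, had 2.81, 3.51, 0 and 0 at high temperature against 23.8, 29.9, 52.2 and 39.8 in the control. Named after its values were seen, HB-3 (AT2G33880), a WUSCHEL-related homeobox gene, had no read at high temperature and 16.5, 15.5, 10.7 and 9.42 in the control. Of 1219 further transcription factors 158 were lower (13.0%) and 286 higher (23.5%). GRF5 (AT3G13960), a growth-regulating factor that promotes cell proliferation, is not among the 7, because the keywords used to form the families did not take it in. It was named after its values were seen and had no read at high temperature, against 54.8, 43.1, 58.6 and 89.0 in the control.

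Signalling members included ROPGEF11 (AT1G52240), which activates ROP GTPases. It had no read at high temperature, against 57.9, 38.7, 52.2 and 31.4 in the control. AT1G33670, a leucine-rich repeat protein, had 0, 1.75, 0 and 0 at high temperature and 165, 137, 151 and 152 in the control. Of 1263 tested kinases and receptors, 5 were members (0.40%, against 0.46% of all tested genes). Among them, AT3G46270 had no read at high temperature and 33.1, 19.9, 33.0 and 15.7 in the control. AT3G46760, a kinase, had 0, 0, 0 and 1.94 at high temperature, against 39.3, 24.3, 30.9 and 13.6 in the control. AT4G22730, a leucine-rich repeat kinase, kept reads in 3 of the 4 high temperature libraries and had a control mean of 22.6. The ethylene biosynthesis gene ACS5 (AT5G65800), named after its values were seen, encodes an ACC synthase. ACS5 had 3.75, 0, 1.91 and 0.97 at high temperature and 30.0, 12.2, 19.2 and 10.5 in the control.

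Photosystem I genes were members too. PSAD-1 (AT4G02770), the D subunit that docks ferredoxin, had 0, 0.88, 0 and 3.87 at high temperature against 61.0, 58.6, 60.7 and 54.4 in the control, with a CV among the controls of 5.16%. PSAH2 was given above. Of 77 further tested photosynthesis genes 30 were lower (39%) and 12 higher (15.6%). BIP3 (AT1G09080), an endoplasmic reticulum chaperone of the heat shock protein 70 family, had 0, 0, 0 and 5.81 at high temperature and 17.6, 9.95, 21.3 and 25.1 in the control. Its 6 reads at high temperature all stood in replicate 4, as did the 6 of AT3G05858, an uncharacterised protein.

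APT4 (AT4G12440), an adenine phosphoribosyltransferase, had 0, 0.88, 1.91 and 0.97 at high temperature, against 133, 143, 73.5 and 92.1 in the control. CYP705A3 (AT4G15360), a cytochrome P450, had no read at high temperature and 25.8, 25.4, 17.0 and 32.4 in the control. The remaining 46 members fell into none of the families, and 12 were uncharacterised proteins. AT3G50150, an uncharacterised transmembrane protein, had 0, 2.63, 0 and 1.94 at high temperature against 49.6, 71.9, 42.6 and 50.2 in the control. AT1G77790, a glycosyl hydrolase, had 0, 1.75, 0 and 0 at high temperature against 23.8, 19.9, 17.0 and 6.28 in the control. AT5G35870, also uncharacterised, had 4.69, 0, 2.86 and 0 at high temperature against 22.7, 21.0, 11.7 and 24.1 in the control.

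The residual reads were uneven among the high temperature libraries. Replicates 1 to 4 held 54, 79, 111 and 90 reads of the members, or 1.39, 1.89, 2.90 and 2.35 of every 1000000 reads in genes, against 126, 103, 105 and 91.2 of every 1000000 in the control. A read was found for 23, 37, 48 and 39 members. Replicate 3 stood highest in both, and 13 members had reads only there, against 4, 4 and 6 only in replicates 1, 2 and 4. Without replicate 3, 38 members had no read at high temperature in place of 25, and 81 of the 100 would be chosen again, with EXPA7, named after its values were seen, among those that would enter. In the same library the summed value of the 11 endodermis genes was 573, the highest of a range of 233 to 573 at high temperature and 178 to 270 in the control. The sum of the root hair growth list stood at 55557 there, within 51021 to 57757 at high temperature and against 88335 to 96692 in the control. ACT2, named after its values were seen, alone gave 21204 there, so the sum says little about hair genes of low level. Outside the members, 33 genes of that list had reads in each control library. Among the high temperature libraries, 6 of these 33 were highest in replicate 3. EXPA18, PRP1, RHS18, MRH6, EXT6, EXT10 and XTH14, named after their values were seen, are among the 33. They stood at 0 throughout high temperature and could not be highest in any library, so fewer than 33 genes could peak in replicate 3. The part of such differences in the residual reads was not tested.

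**Figure D2:**
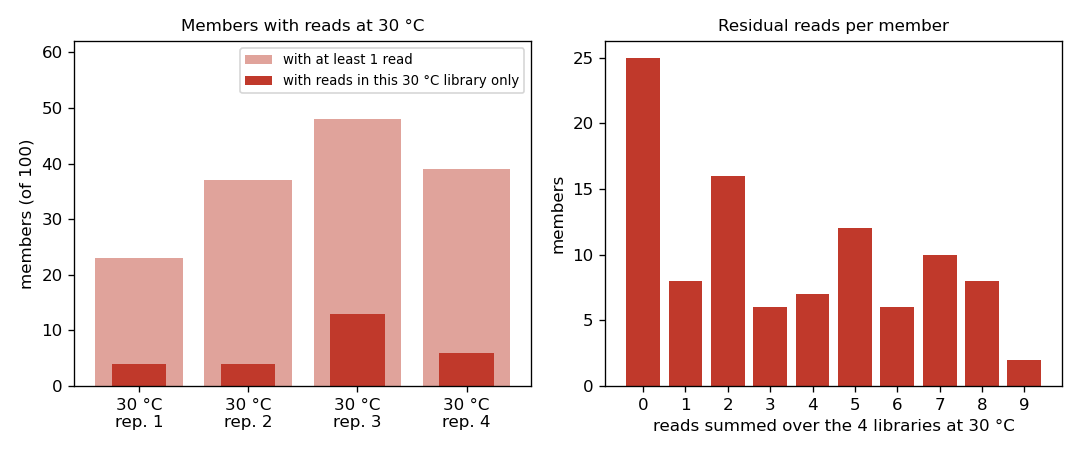
Left, the number of the 100 members (y axis) with at least 1 read in each 30 °C library (pale) and with reads in that library alone (dark). Right, the number of members (y axis) by their reads summed over the 4 libraries at 30 °C (x axis), with 25 at 0 and none above 9. Replicate 3 has the most members with a read (48) and the most with reads nowhere else at 30 °C (13).

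The limits that chose the members cut through a continuous range. Just inside the rank of 100 stood PSAH2, AT5G06790 and AGL14 with control means of 12.6, 12.5 and 12.48, and just outside it MRH6, RMF and GRP5 with 12.45, 12.3 and 12.2. MRH6, a gene of hair morphogenesis, and GRP5, a glycine-rich protein, had no read at high temperature either. Just inside the limit of 2 at high temperature stood PSAH2, AT1G33100 and AT1G61920 with means of 1.996, 1.99 and 1.92. Just outside it were GAPA-2, AT3G07070 and GGT2 with 2.08, 2.08 and 2.1. With a limit of 1, 292 genes met both limits and 62 members were kept, and with a limit of 5, 1011 genes met them and 49 members were kept.

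The members varied among the control pools. Their CV among the control libraries had a median of 32.2% (4.80% to 76.9%), against 15% over the 5772 tested genes with a control mean in the same range. After the part due to counting was taken off, the medians were 24.1% for the members and 9.57% for those genes, whose median control mean of 91.2 was higher than the 25.7 of the members. Control replicate 1 was the highest for 45 members, against 27.3% of those genes, and replicate 4 the lowest for 39, also against 27.3%. The ratio of replicate 1 to replicate 4 had a median log2 of 0.35 in the members, against 0.02 in those genes and 0.08 in the 1050 genes of that range called lower. Being chosen on the mean of the same libraries, the members are described here and not tested.

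Single members ran either way. In all, 26 members were at least 2-fold higher in control replicate 1 than in replicate 4, among them MYB28, AGP3, PRP3 and HRGP1. Another 6 were at least 2-fold higher in replicate 4, among them PXMT1 (AT1G66700), a methyltransferase with no read at high temperature and 4.13, 14.4, 17.0 and 33.5 in the control, and AT5G01870. Of the root hair growth list, 4 entries were members (MES15, PRP3, AGP3 and EXT12), and all 4 were higher in replicate 1 than in replicate 4, with a median log2 ratio of 1.23. The same was so for 30 of the 33 genes of that list outside the members with reads in each control library, at a median log2 ratio of 0.37. The summed values of these 33 genes in control replicates 1 to 4 were 96034, 93983, 96566 and 88226, with replicate 3 the highest and replicate 4 the lowest. ACT2 alone gave 46637, 45580, 46952 and 43128 of them, so the sums mainly reflect highly expressed genes and say little about hair genes of low level. The part of unequal hair cell content in the spread of the members was not tested.

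**Figure D3:**
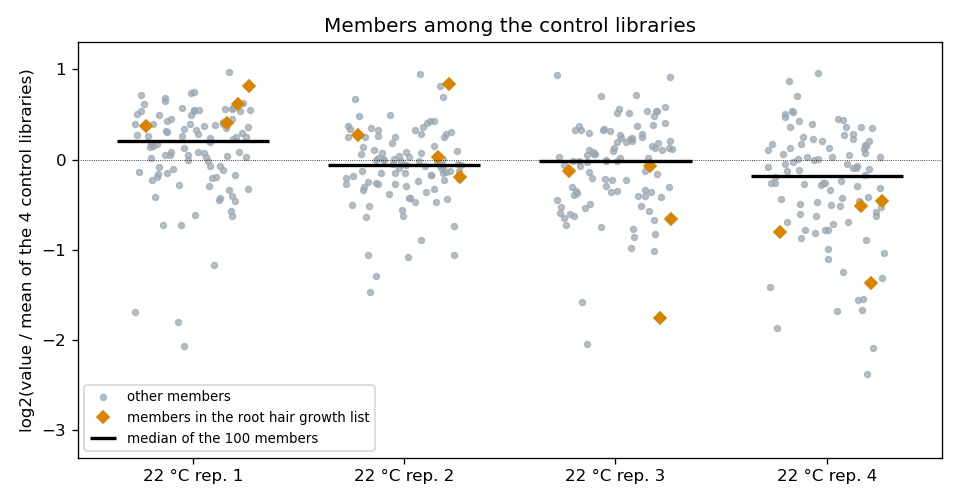
Log2 of each member's value over its mean of the 4 control libraries (y axis), by control library (x axis), with 96 members in grey, the 4 of the root hair growth list as diamonds and a bar at the median of all 100. The bar is highest in replicate 1 and lowest in replicate 4, and all 4 diamonds lie above 0 in replicate 1 and below 0 in replicate 4.

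MES15 (AT1G69240) had no read at high temperature and 111, 85.1, 79.9 and 58.6 in the control. Beyond the 4 members, the list held 35 tested genes, of which 21 were lower (60%, against 17.5% of all tested genes), 2 were higher and 12 were neither, with a median log2 fold change of -0.99 against 0.01 over all tested genes. The RHE stood before 9 of these 35 genes, against 0.92% of all promoters. Hair gene promoters were already known to carry it, as said above, so this count is no independent result. The 2 higher ones were PIP5K3, a lipid kinase of the hair tip (log2 fold change 0.81), and OXI1, a kinase of hair growth (1.49), and both were named after their values were seen. The list was drawn up with results of these libraries known, and its counts are a description.

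None of the bHLH factors that act above the hair genes was itself a member, because each kept reads at high temperature or had a lower control level. Of the 7 tested factors 6 were lower, against 17.5% of all tested genes, and the other did not pass the fold threshold. RHD6, which starts hair formation, had 557, 659, 610 and 694 at high temperature and 1323, 1335, 1609 and 1472 in the control, with a log2 difference of -1.19 ± 0.07 (SE, limma adjusted p = 1.1e-09). RSL4, which drives hair growth, averaged 32.1 ± 7.77 at high temperature and 120 ± 20.3 in the control (SD, n = 4 each; limma adjusted p = 7.9e-07). RSL2 is the only one of them with no read at high temperature, and with a control mean of 7.89 it met both limits of the rule but stood below the rank of 100.

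The factors closer to hair initiation and those of the LRL group differed in size. RSL1 averaged 108 ± 17.0 at high temperature and 406 ± 37.1 in the control (SD, n = 4 each; log2 fold change -1.92). LRL2 averaged 833 ± 66.0 against 1717 ± 77.5 (-1.05), and LRL3 averaged 4.64 ± 3.06 against 33.1 ± 13.7 (-2.85). LRL1 had a log2 fold change of -0.30 and did not pass the fold threshold. The groups did not overlap for any of the 7, and each had an exact two-sided permutation p of 0.029, the smallest that 70 arrangements can give. Of all 21739 tested genes, 32.7% likewise had every high temperature library below every control library.

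The patterning genes, which set the hair or non-hair fate, were not members either. Of 10 tested, 4 were lower (GL3, EGL3, CPC and ETC1), 1 was higher and 5 were neither. Over all tested genes 17.5% were lower and 20% higher. MYB23, which reinforces the non-hair fate, averaged 566 ± 46.2 at high temperature and 227 ± 24.8 in the control (SD, n = 4 each), which is 1.32 ± 0.09 on the log2 scale (SE, limma adjusted p = 3.2e-09). WER, listed as MYB66 in RefSeq, had a log2 fold change of -0.56 and missed the fold threshold. ETC1, an inhibitor of the non-hair fate, averaged 3.79 ± 3.06 at high temperature and 97.6 ± 6.14 in the control (SD, n = 4 each), so that its mean lay above the limit of 2 while its control level was within the range of the members. GL2, TTG1, TTG2 and TRY were called neither, with log2 fold changes of 0.01, 0.11, 0.27 and -0.07.

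**Figure D4:**
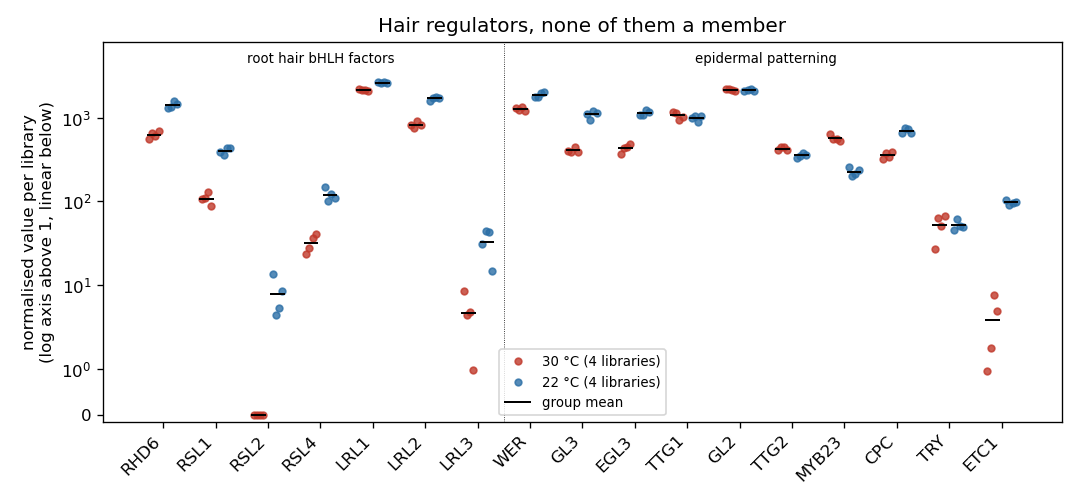
Normalised values (y axis, log scale above 1 and linear below) of 7 root hair bHLH factors and 10 epidermal patterning genes (x axis), with 4 libraries at 30 °C in red left of 4 libraries at 22 °C in blue and a bar at each group mean. RSL2 is at 0 in all 4 libraries at 30 °C, and MYB23 is the gene that was called higher.

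Most members have a relative in the genome that was not a member. A closest paralog, the best protein match with at least 40% identity over at least 60% of the member, was found for 82 members, and none of these paralogs was itself a member. Of the distinct paralogs 52 could be tested. At high temperature 17 were lower (32.7%, against 17.5% of all tested genes), 6 were higher (11.5%) and 29 were neither, with a median log2 fold change of -0.37. At 60% identity or more, 15 of 36 were lower (41.7%) and 4 higher. Of the paralogs that were not tested, 15 were listed at 0 in all 8 libraries of the FPKM values, 3 were above 0 there in 1 library and 12 were under the filter on low values.

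FUT5, a fucosyltransferase with 87.6% identity to FUT10, averaged 7.97 ± 4.50 at high temperature and 156 ± 20.8 in the control (SD, n = 4 each), which is -4.44 ± 0.41 on the log2 scale (SE, limma adjusted p = 1.1e-07). FUT10 itself had 0, 0, 2.86 and 0 at high temperature against 14.5, 16.6, 34.1 and 7.33 in the control. PSAD-2, with 93.3% identity to PSAD-1, averaged 16.9 ± 5.59 at high temperature and 32.7 ± 4.04 in the control (SD, n = 4 each; log2 fold change -0.98, limma adjusted p = 0.0076). Every library of PSAD-2 at high temperature lay below every control library.

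AT1G33110, a MATE transporter with 88.3% identity to the member AT1G33100, was higher at high temperature. It averaged 6709 ± 573 at high temperature and 2370 ± 55.5 in the control (SD, n = 4 each), which is 1.5 ± 0.05 on the log2 scale (SE, limma adjusted p = 1.0e-12). AT1G33090, the MATE gene on the other side of AT1G33100, was named after its values were seen and averaged 7.25 at high temperature and 233 in the control, a log2 fold change of -5.03. These genes lie in a row, and with such copies a few reads can be assigned to the wrong one. APT3, with 87.4% identity to APT4, averaged 325 ± 16.5 at high temperature and 469 ± 24.4 in the control (SD, n = 4 each) and did not pass the fold threshold at -0.53. PSAH-1, beside PSAH2 at 91.7% identity, had a log2 fold change of -1.15 (limma adjusted p = 0.079), and AT1G66690, beside PXMT1 at 92.1%, had 0.33 (limma adjusted p = 0.77). For 7 members the closest paralog was at least 90% identical. AT5G48190, a glycosyltransferase, had 0, 4.39, 0 and 2.90 at high temperature and 10.3, 8.85, 10.7 and 25.1 in the control. Its closest paralog was 100% identical and was listed at 0 in all 8 libraries of the FPKM values. To which of these copies the reads belong is uncertain.

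**Figure D5:**
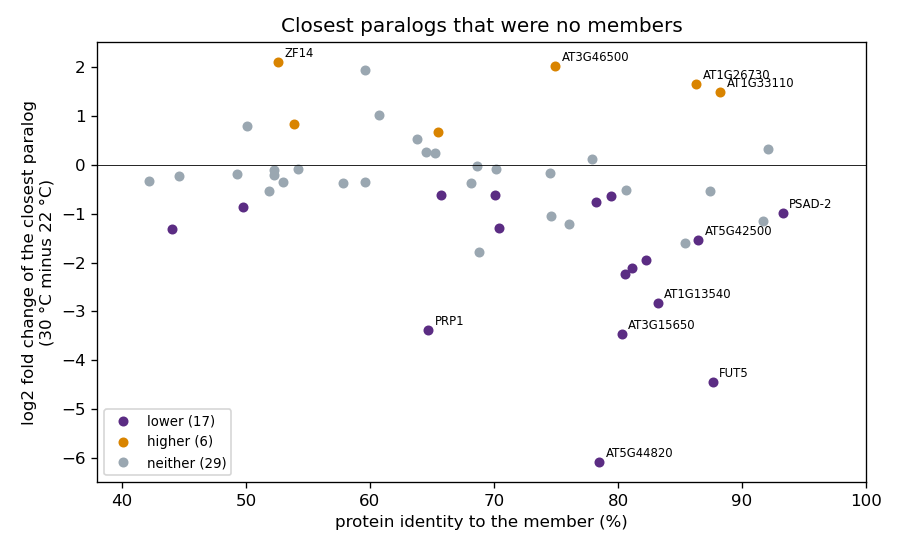
Log2 fold change (30 °C minus 22 °C, y axis) of the 52 tested closest paralogs against their protein identity to the member (x axis, %), coloured by call. Of them 17 were lower, 6 higher and 29 neither, and FUT5 (-4.44) and AT1G33110 (1.5) lie on opposite sides of 0 at nearly the same identity.

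The members numbered 37, 8, 24, 16 and 15 on chromosomes 1 to 5, against 26.3%, 15.2%, 19.9%, 15.2% and 22.7% of the genes in the table. Of the 97 coding members 26.8% had a single coding exon, against 19.1% of the tested coding genes. Their proteins had a median length of 372 residues, against 383. Of the members 3 were long non-coding RNAs.

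There were 5 pairs of members within 5 gene positions of each other. AT1G13500 and AT1G13510, adjacent genes of 1 uncharacterised family, had no read and 0, 0, 0 and 2.90 at high temperature. In the control AT1G13500 had 22.7, 11.1, 22.4 and 5.23, and AT1G13510 had 77.5, 73.0, 96.9 and 63.9. PSAH2 and ROPGEF11 are adjacent on opposite strands and overlap by 174 bases at their ends. The other pairs joined AT1G06773, a non-coding RNA, with AT1G34500, a membrane-bound acyltransferase, then AT3G45070 with the non-coding AT3G06955, and the defensin-like AT4G22214 with AT4G22217. The members AT1G34500, AT3G45070, AT1G06773 and AT3G06955 had control means of 76.2, 20.7, 16.0 and 14.1.

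The genes next to the members were counted as well. Of 104 tested nearest neighbours outside the members, 32 were lower (30.8%, against 17.5% of all tested genes) and 12 were higher (11.5%), with a median log2 fold change of -0.24. Protein relatives of the member made up 16 of them, of which 9 were lower (56.2%), and of the other 88, 23 were lower (26.1%). A relative here is any match in the same protein search, without the limits on identity and length set for paralogs. Of the 83 that were neither matched to the member by that search nor overlapped it, 20 were lower (24.1%). The search left out some genes of the same family as their member. AT3G54580, extensin-like beside HRGP1, and AT4G22212, defensin-like beside AT4G22214, were not matched and were lower. Both were named after their values were seen. Within 2 genes on either side, 56 of 225 were lower (24.9%) and 34 higher (15.1%).

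Several neighbours, named after their values were seen, were lower by more than the spread between pools. AT3G54580, a proline-rich extensin-like gene beside HRGP1, averaged 11.2 at high temperature and 1495 in the control, a log2 difference of -8.20 (limma adjusted p = 2.8e-07). AT1G34490, an acyltransferase beside AT1G34500, averaged 6.83 against 119 (-4.38), and NPC3, a phospholipase C beside NPC4, averaged 76.8 against 549 (-2.83). LHY, the morning MYB factor of the clock, lies beside UMAMIT28 and averaged 199 at high temperature and 1681 in the control (-3.10). The 3 ABCA genes in a row split, with ABCA5 at 56.5 against 205 (-1.86), the member ABCA6 between them and ABCA7 at 11078 against 3993 (1.47).

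Overlaps between genes limit some members, and the partners DELTA-TIP, AT1G30880 and MEF20 were named after their values were seen. Of the 100, 12 overlapped another annotated gene and 9 of these a gene with reads. The libraries kept the strand, but the sources used here do not give the strand setting of the counting, and reads of opposite strands may have been shared. AT3G03265, a natural antisense transcript over 445 bases of DELTA-TIP, had 0, 2.63, 0 and 1.94 at high temperature and 31.0, 31.0, 23.4 and 34.5 in the control. DELTA-TIP, a water channel of the vacuole, averaged 130 at high temperature and 2713 in the control. AT1G30870 overlapped AT1G30880 by 82 bases, where AT1G30880 was higher at high temperature (8400.5 against 4531), and AT3G18960 overlapped MEF20 by 359 bases, also higher (284 against 159).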

How the data were processed

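The authors made directional poly(A) libraries. The submitters' processing notes name HISAT2, TAIR10 and DESeq2 with no version. How the reads were counted, and with which strand setting, is not given in the sources used here. The authors deposited a normalised signal per gene, which is the read count divided by a DESeq2 size factor, and a table of FPKM values per gene. From the normalised values the reads were recovered, and 100% of them were whole within 0.01. Size factors were 1.03 to 1.14 at high temperature and 0.904 to 0.967 in the control.

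Differences (high temperature minus control) were tested with limma 3.58.1 (R 4.3.3, trended prior variance) on log2(normalised value + 0.5) of the 21739 genes with a mean of at least 1. A call needed a p under 0.05 after Benjamini-Hochberg adjustment over these genes and a log2 fold change of 0.58 or more in either direction. On this scale the changes of low genes are understated. edgeR 4.0.16 and DESeq2 1.42.0 on the recovered reads were alternatives. The test was tried on simulated data first. An exact permutation test, two-sided over 70 arrangements, was added for single genes outside the members.

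Names, positions and promoters came from RefSeq's TAIR10.1, which held 23479 of the 23632 identifiers and all 100 members. Paralogs were found with BLAST+ 2.17.0 (E value under 1e-10). Families were formed by keywords in the RefSeq descriptions, which left some members out of their family, among them GRF5, ABCA6 and ZFP10. The members, lists and families were chosen with earlier results of these data known. Of 157 list entries 16 were dropped because their name was not that of the identifier in RefSeq, among them the entry for AT1G30870.

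Named were the 12 members with the highest control means, members in any list, up to 3 members per family, the genes nearest to each limit, members within 5 gene positions of each other, the genes of the bHLH and patterning lists, the 6 closest tested paralog pairs and the 5 members with the most reads in 1 high temperature library. Further genes were chosen once their values were known, and the text says so where they appear. Counts of members that had been picked by the same values carry no test.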

Additional observations from a re-analysis of the deposited data

Results flagged for a closer look

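Groups of 4 libraries were checked for a single value far from the others, by the gap to the nearest value over the range of the group. Of 68 groups 2 passed Dixon's 95% limit, and chance alone passes about 1 in 20. SBT1.3 had 127 in control replicate 4, under 160 to 162 in the other control libraries. FUT5, the paralog of FUT10, had 125 in control replicate 4, under 162 to 168 in the others. The high temperature groups of the members were not put to this limit, because 3 zeros and 1 value always pass it.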

How the results depend on the processing

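Of the counts that answer a comparison, 122 values under an alternative stayed within 1.5 times the reported one and 9 moved further. Among the single genes, log2 fold changes near 0 or of low level changed sign when 1 library was left out. These were TRY (-0.22 to 0.22), GL2 (-0.01 to 0.03) and AT1G66690 (-0.15 to 0.92). With a filter at a mean of 10, 13 root hair growth genes outside the members were lower, because fewer were tested. With no fold threshold 7657 genes were lower, 7798 were higher and 49 neighbours were lower, and with the 2 nearest genes on each side 56 neighbours were. Of the members 62 were kept with a high temperature mean below 1, 49 with a mean below 5 and 62 when ranked by FPKM. Leaving out 1 high temperature library left 29 to 38 members without reads at high temperature. Leaving out any 1 library kept 81 to 97 members. It gave 30 to 32 lower neighbours, 15 to 18 lower and 5 to 7 higher paralogs, 21 to 23 lower root hair growth genes outside the members and 6 lower bHLH factors.

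Rescaling every library to the same total moved the median log2 fold change of all tested genes to 0.22, against 0.01. It gave 2595 lower and 5967 higher genes, against 3797 and 4344, and 13 lower and 7 higher paralogs. The bHLH factors stayed at 6 lower. The deviations of same-numbered libraries correlated at -0.009 to 0.016, which shows no pairing by replicate number. Such correlations cannot tell whether same-numbered pools were handled together. With the replicate number as a block, 3762 genes were lower, 4300 higher, and 32 neighbours and 16 paralogs lower. With at most 9 reads per member at high temperature and 47 to 1110 in the control, depth limits any fold below the bounds given.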
